A study of Mus musculus with 6 samples.

Results

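The genes described here encode the nuclear subunits of the mitochondrial respiratory chain and of ATP synthase. They were taken as every probe whose single gene symbol names an Nduf subunit of the a, b, c, s or v series, Sdha to Sdhd, a Uqcr subunit, a Cox4 to Cox8 subunit or an Atp5 subunit. This gave 118 probes of 78 genes, out of 45281 probes and 19050 named genes in all. Complex I had 35 genes, complex II 4, complex III 7, complex IV 16 and complex V 16. Of the 78 genes, 72 were measured, meaning that a probe was detected above background on at least 3 of the 6 arrays, and of the 118 probes 101 were. One symbol, Ndufs5-ps, is that of a pseudogene, and Ndufa4 is counted with complex I by its name although its protein was later assigned to complex IV.

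The arrays measured total RNA of whole tumours formed by 4T1, a BALB/c mammary carcinoma cell line of the mouse. In 3 tumours, labelled uPA overexpression, the 4T1 cells had been transduced with a lentivirus that expresses mouse uPA, the urokinase-type activator of plasminogen, a secreted serine protease. In the other 3, labelled empty vector, they carried the same type of virus without the gene. Both kinds of cells were placed in the fifth mammary fat pad of female BALB/c mice aged 8 to 10 weeks, and the tumours were taken on day 7. No difference in host genotype or treatment is given, and the labels neither say how many clones the transduced cells came from nor that each tumour came from a separate mouse. The p-values below therefore measure only the spread between these tumours.

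Oxidative phosphorylation passes electrons from NADH through complex I, or from succinate through complex II, to coenzyme Q, then through complex III and cytochrome c to complex IV, where oxygen is reduced. Complexes I, III and IV pump protons across the inner mitochondrial membrane, and complex V, ATP synthase, uses their return to make ATP. Complex II is made only of nuclear subunits, whereas the others also need subunits encoded in mitochondrial DNA, and in tumours this system works beside glycolysis in the cytosol. Of the mitochondrially encoded subunits 0 had a named probe, so only the nuclear side was followed.

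Levels are log2 intensities after background correction and quantile normalisation, differences are those labelled uPA overexpression minus empty vector on that scale, and a gene is shown by its brightest probe. Levels of different probes cannot be compared with each other. Mean raw intensity per array was 415.7 to 460.8, and 43.6% to 46.1% of probes were detected. Of 12 epithelial and tumour cell markers 11 were measured. Krt8 and Krt18 were detected on all arrays, while Epcam was detected on 0. Plau, the gene of uPA, went against the labels, with levels of 11.94, 12.29 and 12.20 in the tumours labelled uPA overexpression and 12.97, 13.16 and 12.70 in empty vector tumours (difference -0.80 ± 0.15, SE; limma, adjusted p = 0.033, lost on leaving out any 1 array, with adjusted p up to 0.11). Every direction below is thus one between libraries as labelled. In whole tumours, fewer cells of a type and less RNA per cell cannot be told apart.

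No single respiratory chain or ATP synthase gene passed the test, yet most had slightly higher levels under the uPA overexpression label. Among the 72 measured genes 0 rose and 0 fell at an adjusted p under 0.05 (limma, Benjamini-Hochberg over 10849 genes), against 5.37% of all genes called, and 0 of the 101 measured probes were called, against 3.57% of all probes. At an unadjusted p under 0.05 there were 7 higher, against 9.95% of all genes, and 1 lower, against 11.3%; together they were 11.1% of the members, against 21.3% of all genes. The difference was above 0 for 59 of 72 (81.9%), with a median of 0.10, whereas over all genes it was above 0 for 49.5% with a median of -0.003. Under scaling to the 75th percentile in place of quantile normalisation it was above 0 for 45 of 72, with a median of 0.041, beside 41.8% and a median of -0.05 over all genes. In 23 members (31.9%) all 3 tumours labelled uPA overexpression lay above all 3 empty vector tumours, against 14.2% of all genes, and in 1 member, Atp5md, all lay below, against 15.5% (29.7% of all genes in either direction). The differences were small: the middle 50% of the members lay between 0.015 and 0.18, while the median standard error of a member was 0.11.

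**Figure D1:**
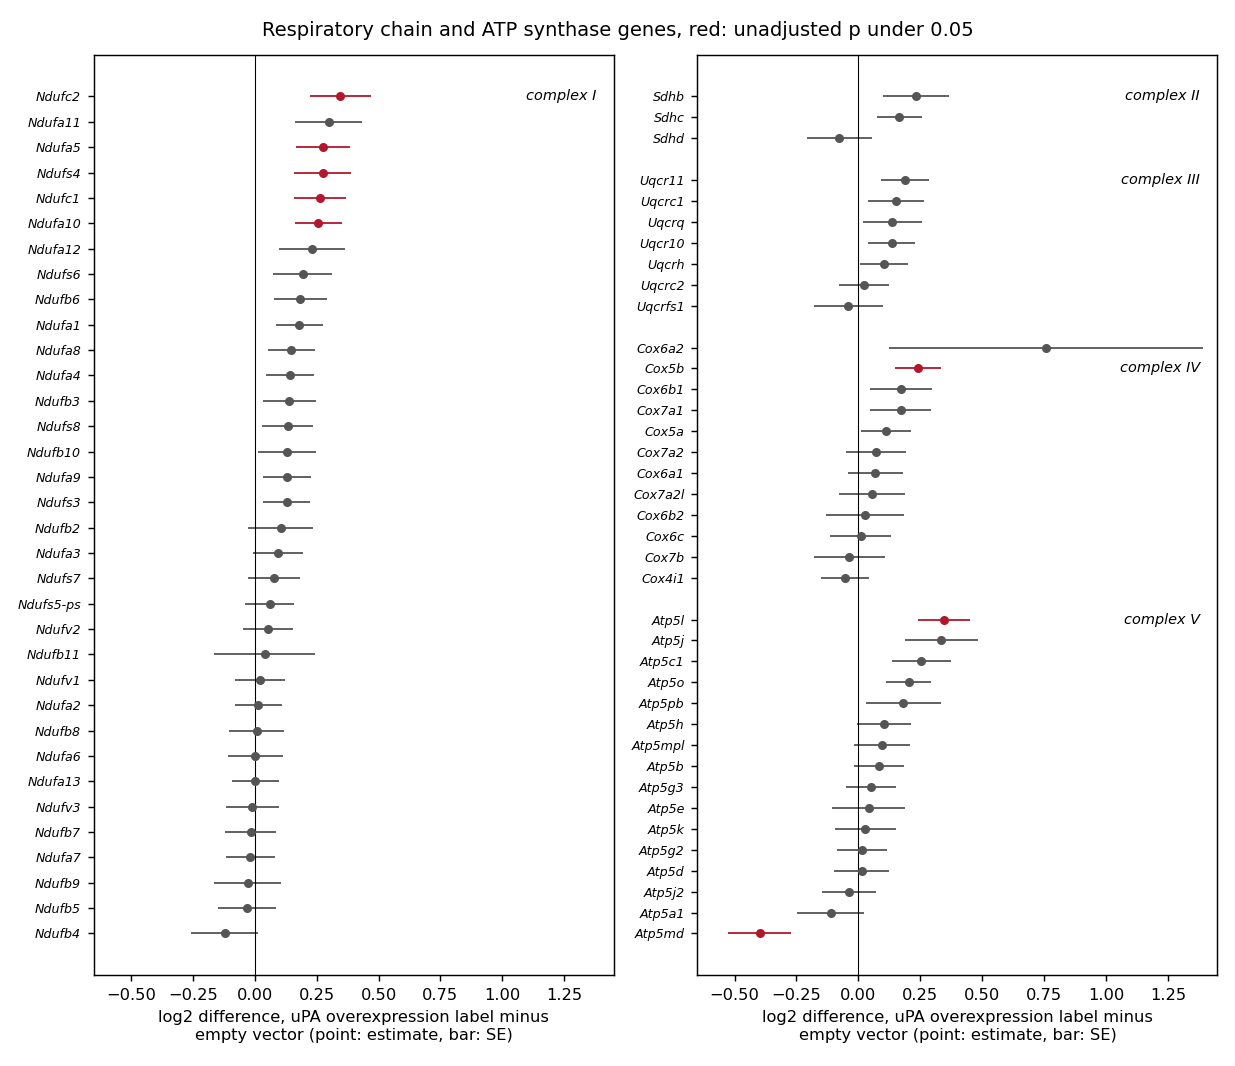
Difference in log2 level, uPA overexpression label minus empty vector, for the 72 measured subunit genes grouped by complex and sorted by size. Points are limma estimates from 3 tumours per group and bars are 1 standard error; the 8 genes in red had an unadjusted p under 0.05, and none passed after adjustment over all genes.

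Most of the members were brightly measured genes. When all genes were divided by mean level into 4 bins of equal size, 54 of the 72 members were in the top bin. Of these 49 were above 0, with a median of 0.13, beside 51.6% and a median of 0.0077 for all 2712 genes of that bin. All 23 members without overlap in the upward direction belonged to it, out of 504 such genes in the bin. In the lower bins the members had medians of 0.027, 0.10 and -0.016 from the dimmest bin up, over 4, 7 and 7 genes. These are too few genes to place the shift in the top bin alone.

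Array by array, no single library set the position of the members as a whole. Each gene was expressed relative to its own mean over the 6 arrays. The median over the members was 0.075, 0.033 and 0.064 in the 3 tumours labelled uPA overexpression and -0.039, -0.048 and -0.058 in the empty vector tumours. The lowest array of a gene was one of the uPA overexpression label in 2, 7 and 5 members, and an empty vector array in 15, 23 and 20. With any 1 array left out the median difference stayed between 0.088 and 0.11. These medians are descriptions of genes that share the same 6 RNA samples, and no test was made over the list.

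**Figure D2:**
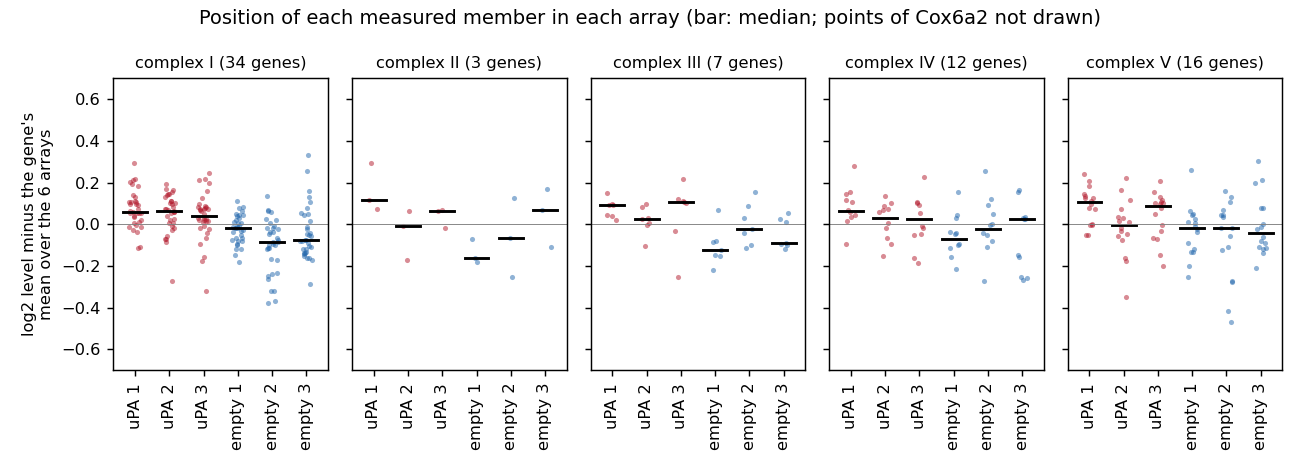
Level of each measured member in each array, as log2 intensity minus the mean of that gene over the 6 arrays, by complex; tumours labelled uPA overexpression are in red and empty vector tumours in blue. Bars are medians over all measured genes of the complex, and the points of Cox6a2, which reach far outside the axis, are not drawn. In complexes I, III and V the 3 red bars all lie above the 3 blue bars.

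Complex I oxidises NADH and is the largest of the 5. Its 34 measured genes had a median difference of 0.12, with 28 above 0. In 14 (41.2%) the groups did not overlap upward, against 14.2% of all genes. Under 75th percentile scaling, where the median over all genes was -0.05, that of complex I was 0.056, with 21 above 0. Ndufs1, which carries iron-sulfur clusters of the NADH-oxidising arm, was detected on 0 arrays. The other core genes are those for the conserved subunits that bind flavin or iron-sulfur clusters or line the quinone site, and 5 of these were measured. All 5 were above 0, with a median of 0.077 and a range of 0.023 to 0.13. For Ndufv1, which binds the flavin where NADH is oxidised, levels were 11.70, 11.86 and 11.89 in the tumours labelled uPA overexpression and 11.81, 11.79 and 11.79 in empty vector tumours. The groups overlapped and the difference was 0.023 ± 0.10. For Ndufs3, a core subunit of the arm that projects into the matrix, they were 10.83, 10.97 and 10.90 against 10.80, 10.74 and 10.78, without overlap but only 0.13 ± 0.096 apart (adjusted p = 0.49).

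The other 29 measured complex I genes, which include the supernumerary subunits that surround the core, had a median of 0.13 with 23 above 0. Ndufc2, a small subunit of the membrane arm, had levels of 11.58, 11.45 and 11.62 in the tumours labelled uPA overexpression and 11.35, 11.01 and 11.26 in empty vector tumours. All uPA-labelled tumours were above all controls, by 0.35 ± 0.12 (adjusted p = 0.17), but a second, dim probe of the gene differed by -0.080. Ndufa10, a membrane-arm subunit related to nucleoside kinases, had 11.89, 11.80 and 11.77 against 11.59, 11.57 and 11.53, which is 0.26 ± 0.095 (adjusted p = 0.18). The groups did not overlap. Ndufa5, a subunit of the matrix arm, differed by 0.28 ± 0.11, with 11.30, 11.39 and 11.46 against 11.17, 10.98 and 11.17. Ndufc1, another small membrane-arm subunit, differed by 0.26 ± 0.11, with 11.76, 11.75 and 11.86 against 11.64, 11.42 and 11.51. Neither overlapped between groups, and adjusted p was 0.20 and 0.21. Ndufs4, a matrix-arm subunit whose loss causes Leigh-like disease in mice, shows how far probes of a gene can differ: its brightest gave 0.27, and the other 3 gave 0.058, -0.044 and -0.011. At the lower end, Ndufb4 of the membrane arm had 6.94, 6.49 and 6.67 against 6.84, 6.75 and 6.87, overlapping groups with a difference of -0.12 ± 0.14. Ndufb8, a membrane-arm subunit often used as an indicator of assembled complex I, had 12.65, 12.51 and 12.60 against 12.57, 12.72 and 12.45, or 0.0086 ± 0.11.

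Complex II, succinate dehydrogenase, links the chain to the TCA cycle. Its flavoprotein gene Sdha was detected on 0 arrays, so 3 of 4 genes were measured and 2 of them were above 0, with a median of 0.17 (0.055 with Sdha included, and 0.093 under 75th percentile scaling). The membrane anchor Sdhc had levels of 11.23, 11.18 and 11.19 in the tumours labelled uPA overexpression and 11.05, 11.05 and 11.01 in empty vector tumours. The groups were tight and did not overlap, at a difference of 0.17 ± 0.092 (adjusted p = 0.35). Sdhb, the iron-sulfur subunit, had 10.29, 9.99 and 10.06 against 9.83, 9.74 and 10.06. Here 1 empty vector tumour lay within the range of the others (0.23 ± 0.13, adjusted p = 0.37), while a second probe without overlap gave 0.38. The anchor Sdhd lay the other way, with 8.96, 8.72 and 8.88 against 8.71, 9.02 and 9.06 (-0.076 ± 0.13).

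Complex III passes electrons from reduced coenzyme Q to cytochrome c. All 7 of its genes were measured, 6 were above 0 and the median was 0.14. In 2 (28.6%) the groups did not overlap upward, against 14.2% of all genes. The median was 0.066, with 5 above 0, under 75th percentile scaling, 0.076 without uPA overexpression 3 and 0.089 without empty vector 1. Both genes without overlap encode small subunits. Uqcr11 had levels of 12.67, 12.55 and 12.63 in the tumours labelled uPA overexpression and 12.40, 12.48 and 12.40 in empty vector tumours (0.19 ± 0.096, adjusted p = 0.31). Uqcr10 had 13.33, 13.24 and 13.34 against 13.15, 13.21 and 13.14, or 0.14 ± 0.095. The core proteins, which form the large matrix domain, were less even: Uqcrc1 had 11.32, 11.38 and 11.42 against 11.08, 11.39 and 11.20, and Uqcrc2 had 11.92, 11.91 and 11.85 against 11.95, 11.77 and 11.89. Their differences were 0.15 ± 0.11 and 0.023 ± 0.10, and both overlapped. Uqcrq, a small subunit, had 7.78, 7.58 and 7.90 against 7.54, 7.72 and 7.60 (0.14 ± 0.12). The Rieske iron-sulfur protein gene Uqcrfs1 was near background, detected on 2 arrays of each group, with 5.15, 5.15 and 4.80 against 4.90, 5.20 and 5.10.

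Complex IV, cytochrome c oxidase, had the smallest share of separated genes when each gene was shown by its brightest probe. Of its 12 measured genes 10 were above 0, with a median of 0.070. In 1 (8.33%) the groups did not overlap upward, against 14.2% of all genes. Second probes of Cox6b1 and Cox6a1 did not overlap (0.16 and 0.12), while a second measured probe of Cox5b overlapped (0.19). Ndufa4, counted here with complex I, also lay without overlap upward (0.14). Under 75th percentile scaling the median of complex IV was 0.012, with 6 of 12 above 0. Over all genes that scaling gave a median of -0.05, with 41.8% above 0. By brightest probe the separated gene was Cox5b, a zinc-binding subunit on the matrix side. Its levels were 13.20, 13.22 and 13.19 in the tumours labelled uPA overexpression and 12.99, 12.98 and 12.93 in empty vector tumours. The spread within either group was 0.016 and 0.031 (SD), beside a gap of 0.24 ± 0.092 (SE), yet the adjusted p was 0.20, and it passed under 1 of 17 other settings (adjusted p = 0.046 with a trended and robust variance prior). Cox5a, its partner on the matrix side, had 12.99, 12.89 and 12.94 against 12.73, 12.84 and 12.91 (0.11 ± 0.10). Cox6b1, which helps to join 2 copies of the enzyme, had 12.88, 12.90 and 12.91 against 12.70, 12.93 and 12.54. Both of these probes overlapped between groups, that of Cox6b1 through empty vector 2. The second Cox6b1 probe, with empty vector 2 at 12.16, did not overlap. Cox4i1, the main form of the largest nuclear subunit, was not on the higher side, with 13.27, 13.16 and 13.18 against 13.19, 13.32 and 13.25 (-0.055 ± 0.098).

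Complex IV is also the complex with tissue-restricted isoforms, and these singled out 1 library of each group. Cox6a2, the isoform of heart and skeletal muscle, had levels of 6.49, 6.72 and 8.94 in the tumours labelled uPA overexpression and 6.08, 6.57 and 7.23 in empty vector tumours. It had the largest difference of all members, 0.76 ± 0.63 (adjusted p = 0.55), and without the array uPA overexpression 3 the difference was -0.022. Cox8b, which in rodents is made in muscle and brown fat, was detected in uPA overexpression 3 and empty vector 3 alone, with 4.55, 4.68 and 7.68 against 4.54, 4.64 and 5.72. Thus array 3 of each group was its highest for both isoforms. Cox7a1, a further muscle form, did not separate these arrays: 7.21, 7.15 and 7.39 against 7.11, 7.21 and 6.91 (0.17 ± 0.12). Cox6b2, the testis form, was near background (5.16, 5.08 and 4.86 against 4.98, 5.28 and 4.76), and Cox4i2, Cox7b2 and Cox8c were detected on 0 arrays.

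Within each group the markers of skeletal muscle were also highest in array 3, except Myh1, at 5.45 in empty vector 1 and 5.42 in empty vector 3. Of its 15 genes other than Cox6a2, 10 were measured and all 10 differed by more than 0, with 0 called. Acta1, skeletal muscle actin, had 7.11, 8.30 and 12.12 in the tumours labelled uPA overexpression and 4.86, 4.74 and 10.18 in empty vector tumours. The summed linear level of the list was 2933 to 16682 against 2874 to 5952, highest in array 3 of each group, and Ckm, muscle creatine kinase, was detected on uPA overexpression 3 alone, with 4.46, 4.40 and 7.18 against 4.45, 4.54 and 4.64. Of the brown fat markers, Ucp1, Cidea, Elovl3 and Ppargc1a were below background. Dio2, a deiodinase of brown fat and other tissues, was the one such marker measured, with 6.11, 5.15 and 5.52 against 4.62, 5.18 and 4.84 (0.71 ± 0.26, adjusted p = 0.17). The median over all members was 0.096 without uPA overexpression 3 and 0.10 without empty vector 3, and the part of muscle RNA in it was not tested.

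**Figure D3:**
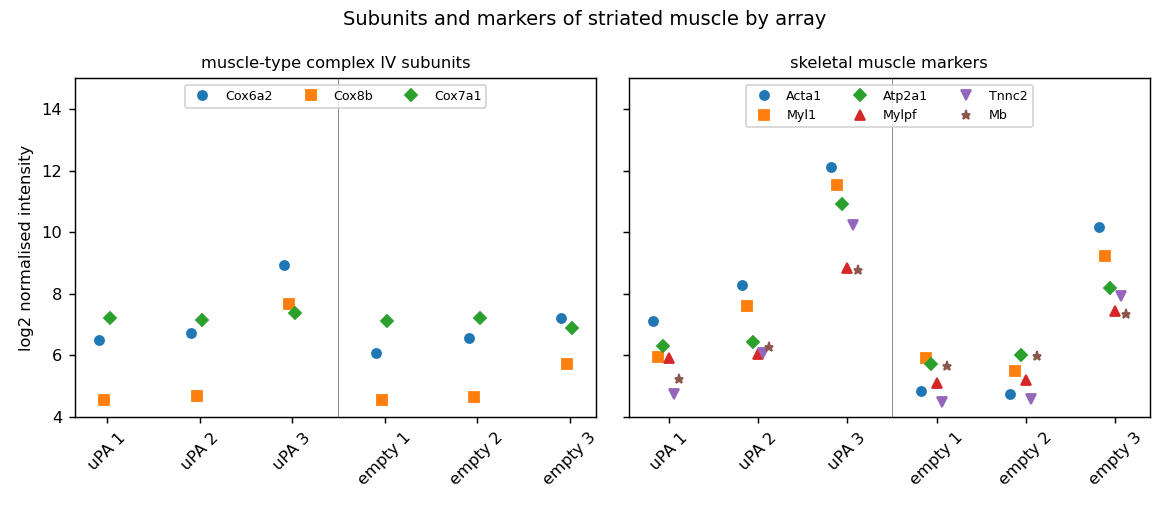
Log2 normalised intensity of the muscle-type complex IV isoforms (left) and of 6 skeletal muscle markers (right) in the 3 tumours labelled uPA overexpression and then the 3 empty vector tumours. Cox6a2, Cox8b and the markers are highest in uPA overexpression 3 and next highest in empty vector 3, while Cox7a1 stays between 6.91 and 7.39.

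Complex V held both members with the smallest p, in opposite directions and both in the accessory part of its membrane sector. Over its 16 measured genes 5 (31.2%) did not overlap upward and 1 downward, against 14.2% and 15.5% of all genes. In 13 the difference was above 0, and the median was 0.067. This median moved with single arrays, to 0.041 without uPA overexpression 1, 0.11 without uPA overexpression 2 and 0.033 without empty vector 1, and was also 0.033 under 75th percentile scaling. Atp5l (probe ILMN_2705268), the g subunit, which sits where ATP synthases pair at the cristae, had levels of 13.48, 13.50 and 13.55 in the tumours labelled uPA overexpression and 13.30, 13.07 and 13.13 in empty vector tumours. The difference was 0.34 ± 0.10 (adjusted p = 0.12), and a second measured probe also gave 0.34 without overlap. Over 17 other settings its adjusted p ran from 0.025 to 0.29 and passed in 3 of them. Atp5md, a small subunit linked to pairing of the synthase, also called DAPIT, had 6.73, 6.43 and 6.58 against 7.04, 6.81 and 7.08. All uPA-labelled tumours were below all controls, by -0.40 ± 0.13 (adjusted p = 0.13, and 0.032 to 0.32 over 17 other settings, passing in 1, array weights, where 9.84% of all genes were called).

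The 4 genes of the peripheral stalk, which holds the catalytic head still while the rotor turns, were all above 0 with a median of 0.19. Empty vector 2 was the lowest array in all 4. Relative to each gene's mean over the 6 arrays, its median was -0.27, beside 0.011 in empty vector 1 and -0.051 in empty vector 3. The size of the stalk median thus leaned on 1 array. Atp5o, the subunit at the top of the stalk, had levels of 13.12, 13.10 and 13.15 in the tumours labelled uPA overexpression and 12.93, 12.90 and 12.93 in empty vector tumours (0.20 ± 0.092, adjusted p = 0.26). Atp5j, the F6 subunit of the stalk, had 12.57, 12.66 and 12.60 against 12.49, 11.97 and 12.36, without overlap but with empty vector 2 far below the rest (0.34 ± 0.15). Atp5pb, the b subunit, gave no single answer: its 4 measured probes differed by 0.18, 0.28, -0.36 and -0.41, and the last, with 6.64, 6.37 and 6.45 against 6.81, 7.00 and 6.87, had the smallest adjusted p of all member probes (0.11 over 20434 probes). In all, 8 of the 23 members with several measured probes had probes of opposite sign.

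In the catalytic F1 head the median of the 5 genes was 0.042. Atp5c1, the gamma subunit and central shaft, had 13.23, 13.02 and 13.09 against 12.99, 12.71 and 12.87 (0.25 ± 0.12, adjusted p = 0.27), without overlap. Atp5b, the catalytic beta subunit, had 14.53, 14.54 and 14.64 against 14.58, 14.47 and 14.41, and Atp5a1, the alpha subunit, had 10.33, 10.03 and 10.05 against 10.06, 10.30 and 10.39. The beta and alpha genes overlapped, at 0.084 ± 0.10 and -0.11 ± 0.14. Between complexes, medians ran from 0.067 in complex V to 0.17 in complex II, less than the range within any one of them. Since leaving out 1 array moved the medians of complexes III and V by more than 1.5 times, no order of the complexes is drawn, and the differences among them were not tested.

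Promoter windows of 250 bases before to 50 after the start, from RefSeq on GRCm38.p6, were found for 64 of the 78 genes (69 windows). Nuclear respiratory genes are known for sites of NRF1, of ETS-type factors such as GABP, and of YY1. Matches were sought on both strands as CGCNTGCGC (NRF1), CCGGAAG (ETS), AANATGGCG (YY1) and TATAAA (the site of TBP in some core promoters), and in 0 member windows did matches to different motifs overlap. The NRF1 letters were in 29.0% of member windows, against 12.4% of the windows of all measured genes and 6.25% of all 32851 windows. The ETS letters were in 23.2%, against 16.8% and 8.86%, and the YY1 letters in 10 of 69 windows, against 4.53% and 2.38%. TATAAA was in 9 of 69, against 7.57% and 13.6%. Split by these letters, the median difference in the tumours was 0.14 with NRF1 (18 measured genes) and 0.10 without, 0.12 with ETS and 0.10 without, and 0.11 with YY1 and 0.10 without. For TATAAA it was 0.031 with (3 of 6 genes above 0) and 0.13 without (48 of 55). With 1 more G before the NRF1 letters, they were in 24.6% of member windows and the medians were 0.10 with and 0.11 without. A match is a description of the letters only.

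Windows are printed for the complex V pair that lay in opposite directions and for a complex IV pair, the widely expressed Cox6a1 and the muscle-type Cox8b, with every match in capitals. They lie at chr9:44920693-44920992 (Atp5l), chr19:47090598-47090897 (Atp5md), chr5:115348909-115349208 (Cox6a1) and chr7:140900397-140900696 (Cox8b), all on the minus strand, and read 5′ to 3′ along the gene.
Atp5l: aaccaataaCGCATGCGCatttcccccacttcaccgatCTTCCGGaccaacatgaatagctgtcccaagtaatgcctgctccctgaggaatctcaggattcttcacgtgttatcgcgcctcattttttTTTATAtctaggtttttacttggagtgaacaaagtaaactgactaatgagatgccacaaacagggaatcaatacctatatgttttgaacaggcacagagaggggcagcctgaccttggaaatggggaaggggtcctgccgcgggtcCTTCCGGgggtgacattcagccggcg
Atp5md: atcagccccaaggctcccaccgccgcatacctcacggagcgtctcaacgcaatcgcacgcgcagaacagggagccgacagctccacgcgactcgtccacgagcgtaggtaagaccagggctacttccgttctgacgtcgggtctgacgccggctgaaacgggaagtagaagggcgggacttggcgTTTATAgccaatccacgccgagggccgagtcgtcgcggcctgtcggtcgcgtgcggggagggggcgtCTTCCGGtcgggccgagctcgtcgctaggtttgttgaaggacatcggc
Cox6a1: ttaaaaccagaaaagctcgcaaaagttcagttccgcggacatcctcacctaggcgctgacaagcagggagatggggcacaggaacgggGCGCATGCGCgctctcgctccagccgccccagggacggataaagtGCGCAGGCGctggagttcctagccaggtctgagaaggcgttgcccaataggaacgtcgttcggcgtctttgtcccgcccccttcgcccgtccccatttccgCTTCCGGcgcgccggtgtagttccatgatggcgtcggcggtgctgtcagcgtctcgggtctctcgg
Cox8b: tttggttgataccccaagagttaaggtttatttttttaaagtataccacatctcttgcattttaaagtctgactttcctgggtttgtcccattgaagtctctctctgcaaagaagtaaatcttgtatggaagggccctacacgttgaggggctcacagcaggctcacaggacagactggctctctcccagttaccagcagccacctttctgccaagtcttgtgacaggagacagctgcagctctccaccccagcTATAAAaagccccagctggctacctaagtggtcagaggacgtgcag
Atp5l and Atp5md, although they differed in direction, both hold ETS and TATA letters. In Atp5l the ETS letters begin at -212 and 25 from the start, the TATA letters at -122 and NRF1 letters at -241. In Atp5md the ETS letters begin at 3 and the TATA letters at -65. Cox6a1 holds NRF1 letters beginning at -162, -161 and -117 and ETS letters at -16. The matches at -162 and -161 overlap and are 1 stretch matched on both strands. Cox8b, by contrast, holds only TATAAA, at 5. The observed over expected ratio of CpG was 1.08 in Cox6a1 and 0.11 in Cox8b, beside a median of 0.79 over the member windows, 0.74 over the windows of all measured genes and 0.38 over all windows.

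Genes that build or feed the chain had small differences, while 5 genes of a list of glucose uptake and glycolysis fell. Of 15 measured TCA cycle and pyruvate dehydrogenase genes 10 were above 0 with a median of 0.10, and of 15 electron carrier and coenzyme Q genes 11, also with a median of 0.10; 0 of either were called. Etfb, which passes electrons from fatty acid oxidation toward coenzyme Q, had 10.91, 10.84 and 10.97 in the tumours labelled uPA overexpression and 10.29, 10.61 and 10.33 in empty vector tumours (0.49 ± 0.12, adjusted p = 0.061, passing in 6 of 17 other settings). Assembly factors had medians of 0.12 for complex I, 0.17 for complex II, 0.0077 for complex III, 0.017 for complex IV and -0.11 for complex V, over 12, 4, 4, 17 and 4 genes with 0 called (the last list also holds Atp5md). Among them Coa3, an early factor of complex IV assembly, had 11.36 on all 3 uPA-labelled arrays against 11.09, 10.94 and 11.03, or 0.34 ± 0.096 (adjusted p = 0.097, passing in 5 of 17 other settings). In the list of complex IV assembly 3 genes lay without overlap upward and 1 downward, against 14.2% and 15.5% of all genes. The gene below was Cox11, at -0.40 ± 0.13 (limma, adjusted p = 0.15). Of 14 genes of mitochondrial biogenesis and transcription 2 lay without overlap upward and 3 downward. Among those below was Esrra, at -0.33 ± 0.096 (limma, adjusted p = 0.11). Of the 14 genes 0 fell and 1 rose, against 3.08% and 2.30% of all genes. The gene that rose was Tfb1m, which methylates mitochondrial ribosomal RNA. It had 7.44, 7.49 and 7.52 against 7.06, 7.05 and 6.96, or 0.46 ± 0.095 (adjusted p = 0.040), and it lost the call in 7 other settings, among them each single array left out except empty vector 2, with adjusted p up to 0.16.

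Of 15 measured genes of glucose uptake and glycolysis 5 fell and 0 rose, against 3.08% and 2.30% of all genes, and the median was -0.40. Slc2a1, the glucose transporter GLUT1, had levels of 10.69, 11.10 and 10.76 in the tumours labelled uPA overexpression and 12.12, 11.94 and 11.98 in empty vector tumours (-1.16 ± 0.14, adjusted p = 0.013). Pdk1, a kinase that restrains entry of pyruvate into the TCA cycle, fell by 0.76 (adjusted p = 0.018), and Pgk1, a glycolytic kinase, fell by 0.72 (adjusted p = 0.015). Eno2 and Pfkl, an enolase and a phosphofructokinase, fell by 0.74 and 0.50 (adjusted p = 0.034 and 0.040). For Slc2a1, Pdk1 and Pgk1 the call was lost without uPA overexpression 1 or empty vector 1, and for the last 2 also without array 3 of either group, with adjusted p up to 0.073 over all settings. For Eno2 it was lost without array 1 or array 3 of either group (adjusted p up to 0.12), and for Pfkl also without uPA overexpression 2 (up to 0.15).

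**Figure D4:**
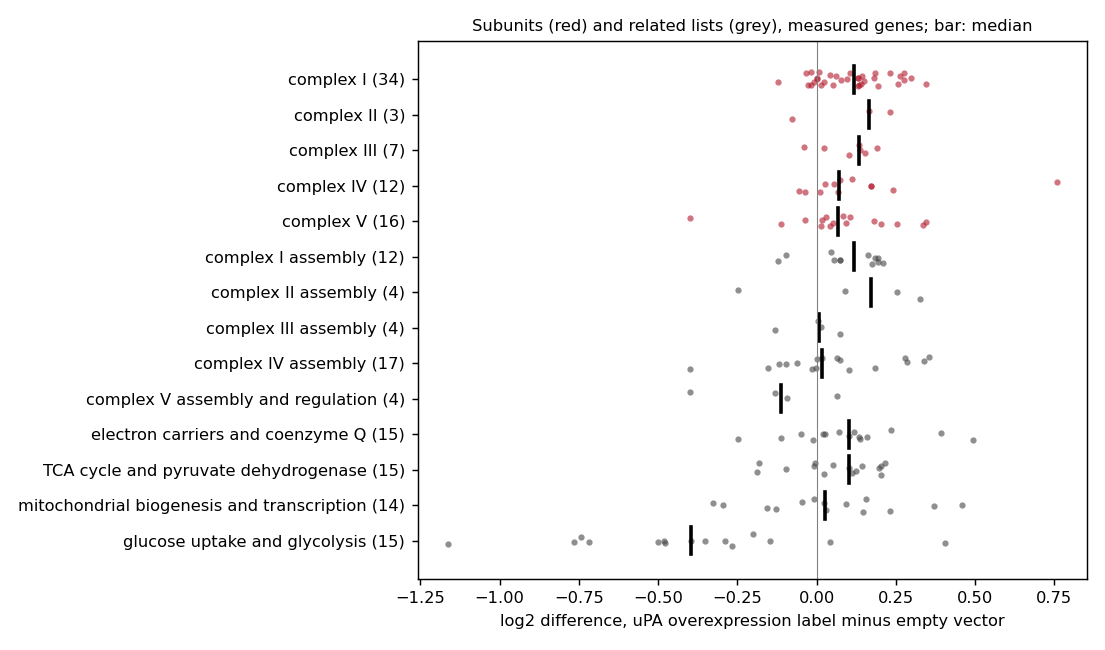
Difference in log2 level, uPA overexpression label minus empty vector, for each measured gene of the 5 complexes (red) and of 9 related lists (grey), with the number of measured genes in brackets. Bars are medians, which run from -0.40 for glucose uptake and glycolysis to 0.17 for complex II subunits and assembly.

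Cell type markers differed between the same groups. Of all genes 2.30% rose and 3.08% fell. Of 13 measured macrophage markers 9 rose (median 0.76), with summed linear levels of 52101 to 62331 in the tumours labelled uPA overexpression and 24977 to 30894 in empty vector tumours. Of 8 mast cell markers 6 rose (median 1.81; 3611 to 4543 against 1324 to 1922). Of 11 epithelial and tumour cell markers 7 fell (median -0.94; 27034 to 32052 against 45031 to 50944). Adipocyte markers had 0 of 6 called, fibroblast markers 1 of 10 (Pdgfrb, which fell) and endothelial markers 0 of 7. The part of these marker levels in the small shift of the respiratory genes was not tested.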

How the data were processed

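Total RNA of 6 tumours was read on Illumina MouseWG-6 version 2.0 BeadChips, and groups were taken from the sample titles. The deposited raw table holds 1 unnormalised intensity per probe and array, with a detection value given as a fraction. That value rises with brightness, so detection p was taken as 1 minus it. The deposited processed values are log2, made by the authors with GeneSpring GX (version 11.0, from the design text), and centred per probe on an unknown level. Their column medians were 0.00332, 0.00247 and 0.00288 for uPA overexpression and 0.00227, 0.0042 and 0.00197 for empty vector. Settings of the scanner: not given in the sources used.

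The tables name probes differently, so rows were joined by their values: 45259 of 45281 matched (median distance 0.000157, against 0.0325 to the next row), all 118 member probes among them. A match had to be at least 3 times nearer than the next. No list of probe addresses was at hand to check the join. Symbols came from GEO's platform annotation, where 34885 probes have 1 symbol, 18 several and 10378 none.

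Intensities were background-corrected with normexp, using negative controls inferred from detection p and an offset of 16. They were then quantile-normalised and put on the log2 scale in limma 3.58.1 under R 4.3.3. A probe counted as measured where detection p was under 0.05 on 3 or more arrays. The groups were compared with lmFit and eBayes and no covariates, which left 4 residual and added 3.35 prior degrees of freedom. P-values were two-sided and were adjusted by Benjamini-Hochberg, with a threshold of 0.05, over 10849 genes or 20434 probes. A gene was shown by its probe with the highest mean. Errors are SE unless stated, and 3 arrays per group limit the precision. The fit was checked on simulated data. Joins and figures used Python 3.11.15, numpy 2.4.6, pandas 2.3.3, scipy 1.17.1 and matplotlib 3.10.9.

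Members, gene lists and tests were chosen with earlier results of these data known. Named members are, in each complex, the 4 with the smallest p; over all measured members, the 2 largest differences in each direction; and the core and signature subunits and detected tissue-restricted isoforms. From other lists they are the called genes or else those with the smallest p, of which some are given. Ndufs4, Atp5pb, Cox6a1, Acta1, Ckm, Cox11, Esrra and Epcam were named after their values were seen, and the NRF1 letters were shortened by 1 base after a first search. Alternatives were another background correction or offset, scaling to the 75th percentile, other detection filters, the processed values, array weights, a replicate block, a trended and robust prior, the mean of a gene's probes, other member sets and each array left out.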

Additional observations from a re-analysis of the deposited data

How the results depend on the processing

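The counts of called members stayed at 0 except as follows: 1 gene rose without background correction and with the deposited processed values (Atp5l in both), 2 with a trended and robust variance prior (Atp5l and Cox5b), and 1 fell with array weights (Atp5md). Of probes 1 rose with the processed values, 1 with the trended prior, and 1 fell with array weights. Scaling to the 75th percentile lowered the median of all genes by 0.05 and gave member medians of 0.041 in all, 0.056 in complex I, 0.066 in complex III and 0.012 in complex IV. Without a filter the median of complex II was 0.055. With each array left out in turn the medians ran from 0.088 to 0.11 over all members, 0.086 to 0.12 in complex I, 0.14 to 0.18 in complex II, 0.076 to 0.16 in complex III, 0.058 to 0.10 in complex IV and 0.033 to 0.11 in complex V. The cause was not tested. Over all genes 583 were called, against 1068 with array weights, 874 with the trended prior, 31 to 604 with 1 array left out and 0 with both empty vector 2 and uPA overexpression 3 left out (added after seeing the data; 1079 higher and 1074 lower at unadjusted p under 0.05).

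Genes near 0 changed sign. With 75th percentile scaling Cox6b2 was at -0.027, Ndufb8 -0.079, Ndufv1 -0.040 and Uqcrc2 -0.047; with array weights Uqcrc2 -0.023 and Uqcrfs1 0.0039; with the mean of probes Atp5a1 0.0062, Ndufb8 -0.062 and Ttc19 0.033. Leaving out each array in turn gave -0.022 to 1.21 for Cox6a2 (below 0 without uPA overexpression 3), -0.096 to 0.16 for Cox6b2, -0.056 to 0.079 for Ndufb8, -0.015 to 0.083 for Ndufv1, -0.027 to 0.062 for Uqcrc2 and -0.12 to 0.076 for Uqcrfs1. With 2 arrays out Cox6a2 was -0.052, Ndufv1 -0.019, Uqcrc2 -0.0049 and Uqcrfs1 0.14.

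After the mean of its group was taken from each probe, the deviations of same-numbered arrays correlated at -0.19, -0.26 and 0.07. The numbers were therefore not taken as pairs. With the replicate block 0 member genes and 0 member probes were called, the member median stayed 0.099, and 30 genes rose and 47 fell in all. Of the listed genes whose names resemble those of subunits, 0 were members, so leaving these out was not run. An unplanned setting left out the pseudogene Ndufs5-ps and counted Ndufa4 in complex IV. The median was then 0.10 over 71 genes, 0.12 in complex I and 0.073 in complex IV. Dim probes near background, such as Uqcrfs1 and Cox6b2, carry little information on direction.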
